A study of Mus musculus with 7 samples.

Results

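The macrophages of the mouse trigeminal ganglion are described here as the cells of 1 single-cell RNA library that carry the C1q genes. A cell was kept with at least 1000 UMIs (unique molecular identifiers, each standing for 1 captured RNA molecule), at least 500 genes and at most 20% of its UMIs from mitochondrial genes. Members were then selected on their measured counts, as kept cells with at least 20 UMIs of C1qa, C1qb and C1qc together per 10000 UMIs. Of 13065 barcodes 9427 were kept, and 369 of these, or 3.91% (exact 95% interval 3.53 to 4.33, Clopper-Pearson), were members. The other 9058 kept cells are the comparison. Within the members, 283 cells held 2 or more UMIs of Mrc1, 27 held 1 and 59 held none, and the first and the last of these classes are compared.

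The trigeminal ganglion, the sensory ganglion of the face, came from wild type mice at postnatal day 3.5 (PN3.5), and 1 library was made from it by 10X droplet capture. The labels do not say how many animals were pooled. The series concerns sensory innervation of molar root development. Its 6 other libraries, of PN7.5 molars from 3 controls and 3 Gli1-CreER;Fgfr2fl/fl animals given tamoxifen (TMX), were not analysed here. With 1 library there is no replicate error and nothing was tested: every interval below is an exact 95% interval that covers counting error only, and UMIs of different cells are treated as independent counts.

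Tissue macrophages depend on signals through the receptor Csf1r, engulf dying cells and debris, and secrete chemokines and complement proteins. C1q, the recognition subunit of the classical complement pathway, is made by macrophages and microglia and can tag material for removal. In sensory ganglia macrophages lie beside neurons and their satellite glia and around the vessels. Mrc1, a mannose-binding endocytic receptor also called CD206, is a well known marker of macrophages at vessels, connective tissue sheaths and the borders of the nervous system, while Trem2, Fcrls and P2ry12 are better known from microglia.

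**Figure D1:**
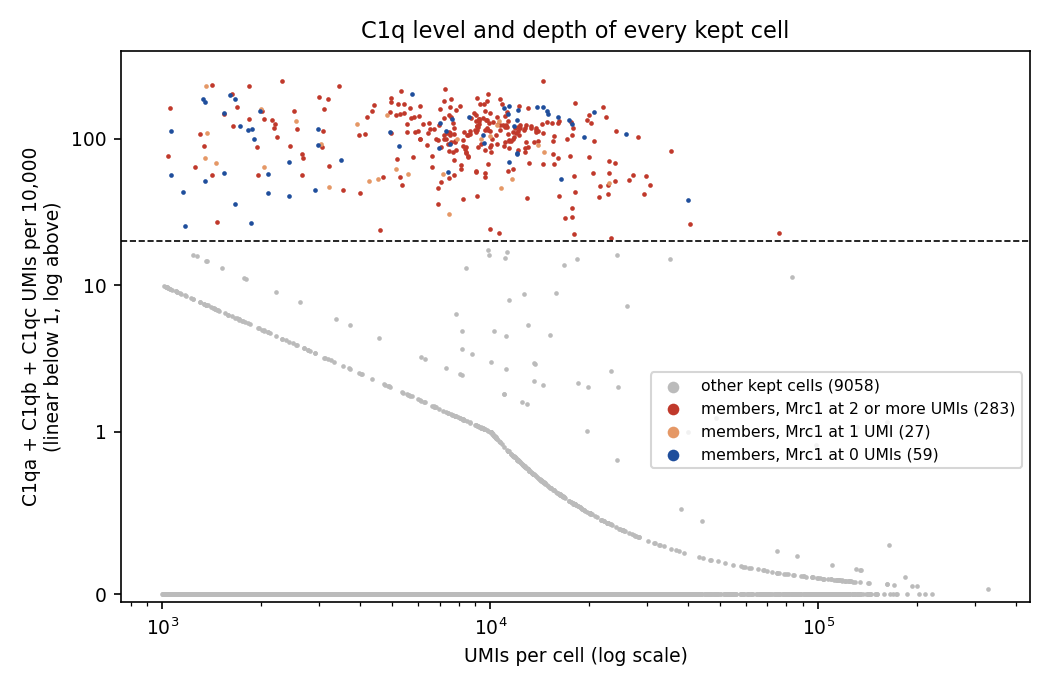
Each point is 1 kept cell, placed by its total UMIs (x axis, log scale) and its summed C1qa, C1qb and C1qc UMIs per 10,000 (y axis, linear below 1 and log above); the dashed line is the threshold of 20. Members, coloured by their Mrc1 UMIs, lie between 21.04 and 250 per 10,000 and span shallow and deep cells, and the highest of the other cells is at 17.3.

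Members stood apart from most kept cells on the values that chose them. Their C1q level ranged from 21.04 to 249.9 UMIs per 10000 with a median of 108, and the highest cell outside was at 17.3. Few cells lay near the threshold: 6 members were at 20 to 25 per 10000 and 9 other cells at 15 to 20. The 6 cells just inside had a median of 49.2 UMIs per 10000 over the 20 genes of a macrophage list that holds no C1q gene, and the 9 just outside had 29.5, so the class is a range on 1 score and its edge is not sharp. A further 8 kept cells were at 10 to 15 and 63 at 5 to 10. The median depth of members was 8669 UMIs and 3042 genes, against 11016.5 UMIs and 3683.5 genes for the other kept cells.

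Macrophage markers that the rule did not use were found in most members. Csf1r, the receptor for the macrophage growth factors CSF1 and IL34, had at least 1 UMI in 340 of 369 members, Trem2 in 337, Fcrls in 332 and Mrc1 in 310. Csf1r ran from 0 to 27 UMIs with a median of 7 per cell, Trem2 from 0 to 63 UMIs with a median of 6, Fcrls from 0 to 49 UMIs with a median of 6 and Mrc1 from 0 to 87 UMIs with a median of 7. With every cell thinned to 3000 UMIs, which left out 62 members, 86.6% of members (82.3 to 90.2) kept a Csf1r UMI, 83.1% a Trem2 UMI, 83.7% an Fcrls UMI and 73.9% a Mrc1 UMI, against 92.1%, 91.3%, 89.97% and 84.0% unthinned. In 560 globin-rich cells, chosen as a type that should lack these genes, the thinned shares were 0.7505% for Csf1r, 0.7505% for Trem2, 0.188% for Fcrls and 0.375% for Mrc1, at a median depth of 9314.5 UMIs. Thinning left out 27 of the globin-rich cells. The thinned shares in members stood far above those in the globin-rich cells, and the part of free RNA in the members' shares was not tested.

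The upstream sequences of a few genes that carry the comparisons below are printed because macrophage genes are known to be bound by the transcription factor PU.1 (gene Spi1). C1qb (chr4:136880129-136886187), C1qc (chr4:136889804-136893065) and C1qa (chr4:136895917-136898803) are protein-coding neighbours on the minus strand of chromosome 4 of mm10. Mrc1 (chr2:14229392-14332057), Trem2 (chr17:48346401-48354147), Pf4 (chr5:90772435-90773383) and Spp1 (chr5:104435118-104441050) lie on the plus strand. The sequences are RefSeq's for GRCm38.p6 (mm10), 5′ to 3′ on the gene's strand, and end before both the RefSeq and the GENCODE start of the gene. Capitals mark the PU.1 core GAGGAA on either strand, where it reads TTCCTC on the printed strand if it lies on the other.
C1qb, chr4:136886201-136886450, minus strand: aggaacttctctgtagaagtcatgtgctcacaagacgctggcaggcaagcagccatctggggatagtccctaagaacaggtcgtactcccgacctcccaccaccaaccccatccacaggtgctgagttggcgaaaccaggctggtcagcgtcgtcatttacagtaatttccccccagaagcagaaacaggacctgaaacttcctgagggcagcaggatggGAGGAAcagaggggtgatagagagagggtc
C1qc, chr4:136893066-136893164, minus strand: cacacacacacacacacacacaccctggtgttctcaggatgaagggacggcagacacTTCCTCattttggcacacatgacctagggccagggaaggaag
Trem2, chr17:48346151-48346400, plus strand: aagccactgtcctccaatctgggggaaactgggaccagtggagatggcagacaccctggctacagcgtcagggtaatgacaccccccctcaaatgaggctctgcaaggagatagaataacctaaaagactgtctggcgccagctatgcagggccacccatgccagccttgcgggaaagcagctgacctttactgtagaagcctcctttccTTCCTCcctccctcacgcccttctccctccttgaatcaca
Mrc1, chr2:14229164-14229391, plus strand: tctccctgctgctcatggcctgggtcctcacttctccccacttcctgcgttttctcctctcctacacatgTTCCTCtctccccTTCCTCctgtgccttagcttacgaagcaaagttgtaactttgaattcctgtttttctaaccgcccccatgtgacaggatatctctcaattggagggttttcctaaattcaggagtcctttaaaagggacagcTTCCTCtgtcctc
Pf4, chr5:90772185-90772434, plus strand: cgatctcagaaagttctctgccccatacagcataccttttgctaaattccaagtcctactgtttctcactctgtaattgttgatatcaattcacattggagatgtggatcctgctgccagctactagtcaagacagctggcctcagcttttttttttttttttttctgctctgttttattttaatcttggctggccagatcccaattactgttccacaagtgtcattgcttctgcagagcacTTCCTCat
Spp1, chr5:104434861-104435110, plus strand: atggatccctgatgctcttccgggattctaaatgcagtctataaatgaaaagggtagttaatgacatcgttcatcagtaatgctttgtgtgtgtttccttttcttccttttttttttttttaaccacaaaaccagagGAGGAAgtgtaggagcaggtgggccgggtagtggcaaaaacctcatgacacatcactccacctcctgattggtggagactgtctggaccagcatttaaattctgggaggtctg

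Mrc1 had 3 matches in its 228 bases and the other 5 genes had 1 each. Of the 20 genes with the highest ratio of members to other kept cells, the 3 C1q genes chose the members and are left out here. Of the other 17, 14 were found in the RefSeq promoter table, and 8 of these 14 (57.1%) held the core within 250 bases upstream, as did 10 of 16 macrophage-list genes. Over all genes of the table the share was 25.9%, and over its 32851 promoters 23.3%. The E-box CACGTG reads the same on both strands and is known as the core of the site of lysosomal gene regulators of the TFEB family. It was in 5 of 16 lysosome-list genes (31.2%), beside 6.86% of all genes of the table and 6.02% of all promoters. None of the 6 windows printed held it. A match is a description of these letters, not a binding site, and genes listed with several promoters had more than 1 chance of a match.

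In the comparison with the other kept cells, 17847 genes had at least 50 UMIs over both sides, and levels are given as CPM, the UMIs of a gene per 1000000 UMIs summed over a group. Of these genes 2122 were at least 2-fold higher in members, 11.9%, and 6549 at least 2-fold lower, 36.7%, with a median log2 ratio over all of them of -0.52. When the interval of the ratio also had to lie beyond 1, 1987 were higher and 4928 lower. Of the 20 macrophage-list genes, 19 were higher and 0 lower, with a median log2 ratio of 5.68. Other myeloid cells carried the list at a similar summed level. Its median per cell was 149 UMIs per 10000 in members and 140 in 78 cells rich in monocyte genes, described further on. It was 148 in 118 cells with at least 500 UMIs per 10000 of S100a8 and S100a9, a neutrophil range cut after values were seen. A similar sum can hold unlike genes: 97 of these 118 cells and 39 of the 78 had no Csf1r UMI, against 29 of 369 members. Csf1r stood at 776 (748 to 806) CPM in members against 5.21 in the other kept cells, a ratio of 149 (137 to 162). Adgre1, which encodes the F4/80 antigen, was 224-fold higher at 291 against 1.30, and Aif1, the actin-binding protein IBA1 used to stain macrophages, was at 515 against 2.09. Cd63, a tetraspanin of late endosomes and the 1 gene of the list not past the fold, was at 795 against 659.

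Genes known from macrophages of vessels and tissue borders and genes known from microglia were both higher in the same class of cells. Of 17 measured genes of the first list, 17 were higher and 0 lower, with a median log2 ratio of 7.31. Mrc1 was at 1115 (1080.4 to 1149.7) CPM against 1.54, 722-fold higher (628 to 834). Cd163, the scavenger receptor for haemoglobin bound to haptoglobin, was at 62.0 against 0.111, and Lyve1, a hyaluronan receptor, at 102 against 1.27. Of 20 genes of the microglia list, 17 were higher and 2 lower (median log2 ratio 4.12). Fcrls, an Fc receptor-like membrane protein, had the ratio 1173 (955 to 1457) at 818 (789 to 849) against 0.698 CPM. Trem2, a lipid-sensing receptor, was at 863 (833 to 894) against 2.29, and Gpr34, a lysophosphatidylserine receptor, at 154 against 0.334. The purinergic receptor P2ry12 was 26.4-fold higher at 142 against 5.38, and Tmem119 was 2.84-fold higher (55.6 against 19.6), and Sparc, a matrix protein that fibroblasts also make, was lower at 881 against 3597. Sall1, the transcription factor that marks brain microglia, was at 9.18 CPM and had a UMI in 21 members. Outside the lists, the 20 genes with the highest ratios held Ltc4s, the leukotriene C4 synthase gene, at 179.9 against 0.631 CPM, and Cryba4, a crystallin gene, at 93.4 against 0.349. In the Ms4a family of membrane proteins 7 of 9 measured genes were higher, with Ms4a7 at 505 against 0.549, and the 1 lower gene, the B cell gene Ms4a1, had no UMI in members.

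Receptors of the innate immune system were higher in members almost throughout. All 10 Fc receptor and adaptor genes were past the fold (median log2 ratio 5.77), with the high-affinity IgG receptor Fcgr1 at 196 against 0.727 CPM, the inhibitory receptor Fcgr2b at 134 against 1.51 and the adaptor Tyrobp at 2053 against 43.6. Of 14 measured pattern recognition genes 13 were higher and 0 lower. Tlr2, which senses bacterial lipoproteins, was at 325 against 2.92, and Tlr7, which senses single-stranded RNA, at 73.1 against 0.594. Complement genes other than C1q were split, with 9 of 16 higher and 3 lower. The anaphylatoxin receptors C3ar1 and C5ar1 were at 413 against 1.05 and 294 against 2.88, and the properdin gene Cfp, whose product stabilises the alternative pathway, at 70.6 against 3.87. The complement inhibitors Cd55, Cd59a and Serping1 were the lower genes, at 10.0 against 48.4, 17.0 against 66.3 and 8.34 against 51.8.

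Among secreted signals, 19 of 21 measured chemokine and cytokine genes were higher in members and 1 was lower, with a median log2 ratio of 4.65. Ccl24, an eosinophil attractant, had 888 UMIs in members and 17 in all other kept cells, which gives 247 against 0.126 CPM and a ratio of 1958 (1216 to 3376), the highest of all genes with at least 200 UMIs. The chemokine genes Ccl3 and Ccl4 were at 1576 against 4.65 and 2874 against 8.25, the Ccr2 ligands Ccl2 and Ccl12 at 1990.3 against 82.7 and 642 against 0.980, and the neutrophil attractant Cxcl2 at 2703 against 17.3. Tnf was at 397 against 2.04, Il1b at 333 against 10.3 and the anti-inflammatory Il10 at 40.6 against 2.13. Cxcl1 stayed inside the fold at 112 against 76.0, and Il6 was the lower gene, with 1 UMI in members. Of 20 growth factor genes 10 were higher and 5 lower, beside 11.9% and 36.7% of all genes. The higher ones included Bmp2 (82.3 against 3.73), the stress-induced factor Gdf15 (292 against 5.18) and Igf1 (318 against 149), while the vessel growth factor Vegfa (5.56 against 24.7) was among the lower ones. Of 10 genes of the CSF1 pathway 9 were higher, and Il34, the second Csf1r ligand, was not past the fold at 5.01 against 8.36. Csf1 itself was at 81.2 against 18.3.

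Genes of digestion and of lipid and iron handling were higher too. Of 22 lysosome genes 21 were higher and 0 lower (median log2 ratio 2.90), among them the proteases Ctss at 1254 against 9.66 and Ctsd at 2002 against 196 CPM. Of 19 genes known from lipid-laden phagocytes 16 were higher and 0 lower. Apoe, the lipid carrier that satellite glia also make, was at 26133 (25966 to 26301) against 2382, Spp1, which encodes the secreted phosphoprotein osteopontin, at 2076 against 773, and Gpnmb, a lysosomal membrane glycoprotein, at 83.7 against 1.14. Cd9, Cd63 and Fabp5 were inside the fold. Among 19 genes for the uptake of dying cells 12 were higher and 4 lower. The receptor Mertk was at 145 against 11.1, its sister Axl at 70.6 against 14.2, their ligand Gas6 at 267 against 34.6 and the scavenger receptor Stab1 at 539 against 3.39, whereas the bridging protein Mfge8 (13.3 against 40.7) and the glial receptor Megf10 (6.95 against 28.5) were lower. Of 16 haem and iron genes 13 were higher and 1 lower. Hmox1, which breaks down haem, was at 967 against 59.2, the iron exporter Slc40a1 (ferroportin) at 192 against 6.26, and Spic, the transcription factor of iron-recycling macrophages, had 163 UMIs in 44 members and 8 in the other 9058 cells.

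All 12 antigen presentation genes were past the fold upwards, with the MHC class II chain H2-Aa at 239 against 17.6, the invariant chain Cd74 at 927 against 51.8 and the costimulator Cd86 at 589.8 against 2.83. H2-Aa was carried by few cells, as shown further on. Of 20 transcription factor genes 19 were higher, including Spi1 at 531 (508 to 556) against 15.7, Irf8 at 139 against 6.37 and Runx1 at 530.3 against 83.9. The 1 factor inside the fold was Klf4 (213 against 172), which many other ganglion cells hold. Of 10 measured interferon-induced genes 5 were higher, with Bst2 at 536 against 52.8, and 1 was lower. Immediate early and stress genes, which tissue dissociation is known to raise, had 9 of 16 higher and 0 lower: Atf3 was at 1216 against 159 and Zfp36 at 647 against 106, while Fos (1045 against 1134) and Jun (1504 against 1281) were inside the fold. The part of dissociation in these values was not tested. No cell cycle gene of 16 was past the fold in either direction, with Mki67 at 88.7 against 78.1 and Top2a at 95.9 against 104.

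**Figure D2:**
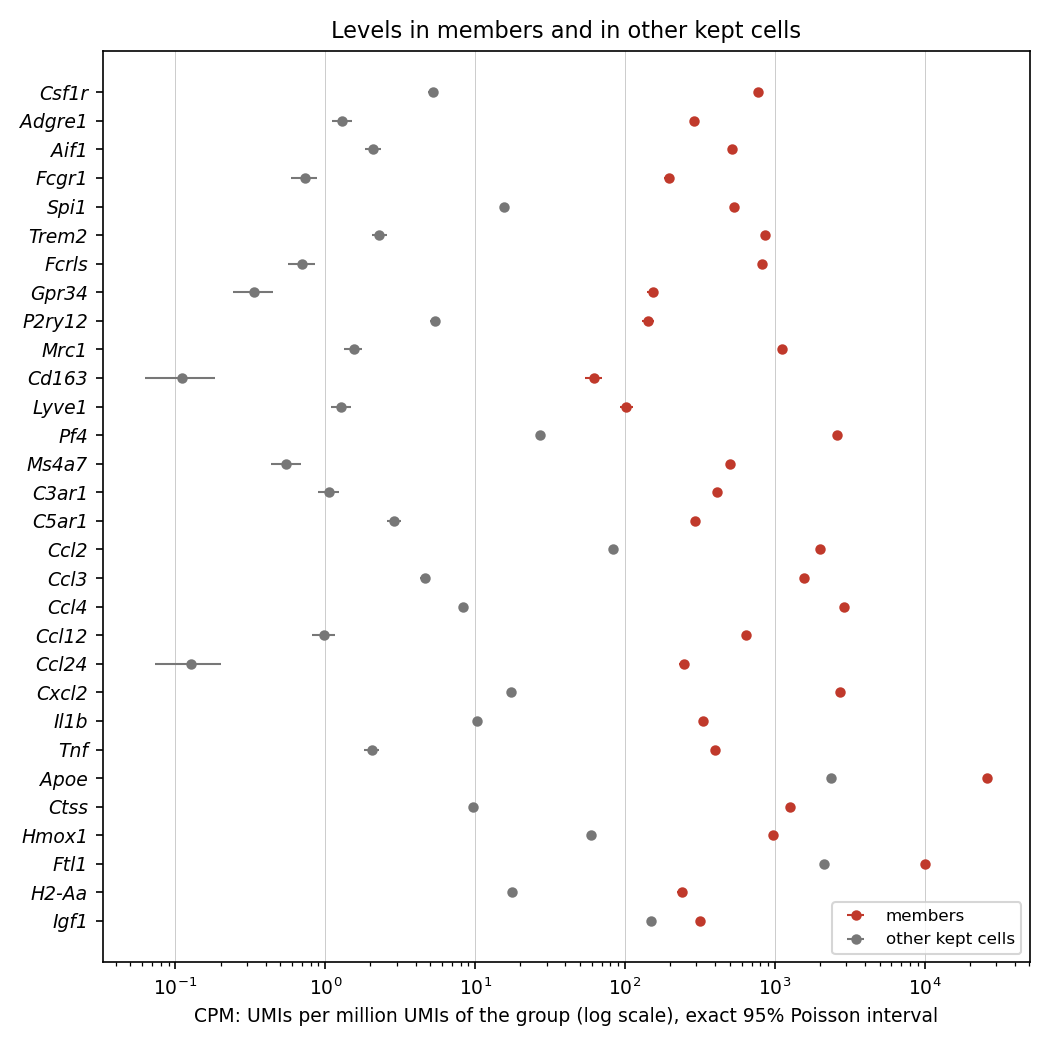
Levels of 30 genes as CPM of a group (x axis, log scale), for the 369 members (red) and the 9058 other kept cells (grey), with exact 95% Poisson intervals. Members are higher for every gene drawn, by the least for Igf1 (2.14-fold) and by the most for Ccl24.

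Markers of other cell types were mostly lower in members but not absent, where 36.7% of all genes were lower. All 12 neuron genes, all 10 fibroblast genes, all 10 neutrophil genes and the 8 measured erythroid genes were lower, as were 11 of 12 Schwann cell genes. Of the other lists, 9 of 10 endothelial, 6 of 10 mural, 9 of 12 monocyte, 4 of 7 measured dendritic, 3 of 6 T and NK cell, 5 of 10 osteoclast and 4 of 6 satellite glia genes were lower, and 0, 0, 2, 1, 1, 2 and 2 were higher. Among the lists named so far, the shares for T and NK cell, osteoclast and dendritic genes, of few genes each, lay nearest to that of all genes. Mast cell genes, with 3 of 9 measured lower, and B cell genes are given further on. The 2 higher satellite glia genes were Apoe and Glul, and the higher dendritic gene was Siglech, which the microglia list holds too. Prph, a neuronal intermediate filament, was at 235 CPM in members and 1459.9 in other cells, the collagen gene Col1a1 at 542 against 4432 and the globin gene Hbb-bs at 8782 against 28135. Summed per cell, the neuron list ran from 0 to 199.96 with a median of 4.31 UMIs per 10000 in members, the Schwann list from 0 to 908 with a median of 8.68, and the erythroid list from 2.91 to 4505 with a median of 26.6. After thinning, 23.1% of members held a Prph UMI against 28.3% of the globin-rich cells, and 33.9% a Col1a1 UMI against 34.5%. The members' shares of cells with a Prph or Col1a1 UMI were near those of the globin-rich cells, and the source of these UMIs was not tested. Doublets were not called or removed, and the part of doublets in single members that are rich in such RNA was not tested.

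Some markers of other leukocytes were past the fold upwards. Ccr2, the receptor that monocytes use to enter tissue, was at 27.5 against 2.48 CPM, while the classical monocyte gene Ly6c2 had 2 UMIs in members and Chil3 none. Of 10 B cell genes Cd79b (38.9 against 7.59) and Ighm (73.7 against 12.5) were higher and the other 8 lower, with no UMI of Pax5 or Ms4a1 in members. Of 9 measured mast cell genes 3 were higher and 3 lower, beside 11.9% and 36.7% of all genes. The higher ones were Hdc, which makes histamine, Tpsab1 and Gata2, and the lower ones Kit, Mcpt4 and Ms4a2. Cma1, a mast cell protease, had 234 of its 236 UMIs in 1 cell, and 352 of 369 members had no UMI of the mast cell list. Among the 10 genes lowest in members, Adcyap1 of sensory neurons, Mpo and Elane of neutrophil precursors and Bglap of osteoblasts had 1, 1, 3 and 16 UMIs.

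Against the cells most like them, members had near equal levels of some myeloid genes and unlike levels of others, and the genes given were chosen after their values were seen. The comparison was 78 kept cells with at least 20 UMIs per 10000 of Ly6c2, Ccr2, Chil3 and Plac8, a range cut after values had been seen, with 20 cells within 25% below the cut and 17 within 25% above it. Spi1 was at 531 against 546 CPM (ratio 0.972, 0.876 to 1.08), Cebpb at 857 against 911 and Tyrobp at 2053 against 1530.0. Mertk was at 145 against 1.24, Cx3cr1 at 471 against 53.3, Trem2 at 863 against 49.6, Csf1r at 776 against 175 and Apoe at 26133 against 831. Lower in members were Lyz2, the lysozyme gene, at 1815 against 6817 and Fn1, the fibronectin gene, at 51.4 against 338. H2-Aa was at 239 against 8.67. The 4 genes that defined the range are left out of this list.

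Within the members, Mrc1 divided the cells unequally and partly by depth. The 283 cells with 2 or more Mrc1 UMIs were 76.7% of members (72.0 to 80.9), and the 59 with none were 16.0% (12.4 to 20.1). Cells without Mrc1 were shallower, with a median of 6956 UMIs against 9107. No Mrc1 UMI was found in 25 of 62 members under 3000 UMIs (40.3%, 28.1 to 53.6) and in 32 of 280 members of at least 5000 UMIs (11.4%, 7.95 to 15.7). At 0 UMIs in a cell the RNA may be absent or missed, and in a shallow cell the 2 cannot be told apart, so values are also given for the 234 and 32 cells of at least 5000 UMIs, whose medians were 9865.5 and 11908 UMIs. The C1q level had a median of 109.9 UMIs per 10000 with Mrc1 and 113 without it.

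The genes known from vessel-associated and border macrophages followed Mrc1. Of 7712 genes with at least 50 UMIs over both classes, 879 were at least 2-fold higher with Mrc1, 11.4%, and 166 at least 2-fold lower, 2.15%, and the median log2 ratio of all was 0.15. When the interval also had to lie beyond 1, 665 were higher and 165 lower. In cells of at least 5000 UMIs 7515 genes were measured, of which 894 (11.9%) were higher and 170 (2.26%) lower. Of 16 measured genes of the border list other than Mrc1, 14 were higher and 0 lower, with a median log2 ratio of 2.91, where genes with no UMI in 1 class stand at their bound against 3 counts over that class.

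Cd163 had 221 UMIs in 80 of 283 cells with Mrc1 (75.2 CPM) and none in the 59 without, which makes it at least 11.9-fold higher. Bmp2, a secreted growth factor, had 292 UMIs in 60 cells with Mrc1 and none without, at least 15.7-fold. The lectin gene Cd209f was at 201 CPM against 2.11, with 1 UMI in the cells without Mrc1 and a ratio of 95.1 (17.0 to 3764), and Lyve1 at 124 against 4.22 (ratio 29.3, 8.04 to 243). Not every cell with Mrc1 had a UMI of these genes: Cd163 was found in 80, Lyve1 in 65 and Cd209f in 44 of the 283 cells, and at these levels cells that hold the RNA can be missed. Pf4, the chemokine CXCL4, was found in 264 of them, at 3085 (3022 to 3149.5) CPM against 228 (187 to 275). Its ratio was 13.5 (11.2 to 16.5) over all cells and 81.9 over cells of at least 5000 UMIs (2926 against 35.7), so the Pf4 of cells without Mrc1 lay mostly in shallow cells. Dab2, an endocytic adaptor, was at 856 (823 to 890.0) against 106 (78.3 to 139), and F13a1, a transglutaminase of blood clotting, at 349.5 against 33.8. The transcription factor Maf was at 476 against 139 (ratio 3.42, 2.67 to 4.45) and the scavenger receptor Stab1 at 620.4 against 179. With each cell weighted equally the ratios were lower, at 4.28 for Pf4, 6.07 for Lyve1, 45.7 for Cd209f, 5.07 for Dab2 and 4.55 for F13a1, all still past the fold. Per cell, Pf4 ran from 0 to 214 UMIs with a median of 23 with Mrc1 and from 0 to 16 UMIs with a median of 0 without it, so the classes overlapped at low counts. Folr2, a folate receptor of the same list, was at 59.2 against 54.9, inside the fold, and so was Gas6 at 286 against 205.

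Chemokines divided between the 2 classes. Of 20 measured chemokine and cytokine genes 9 were higher with Mrc1 and 3 lower. Ccl7, a Ccr2 ligand, was at 879 (845 to 914) against 33.8 (19.3 to 54.8) CPM (ratio 26.0, 16.0 to 45.6), Ccl24 at 297 against 12.7 (ratio 23.4, 10.7 to 64.0) and Ccl2 at 2321 against 369 (ratio 6.28, 5.41 to 7.34). Cxcl1 was at 133 against 14.8, and of the 7 UMIs in cells without Mrc1 6 came from 1 cell. Il1a was the reverse at 73.5 against 219.5, 2.99-fold lower (2.34 to 3.79), as were Ccl6 and Ccl9, and came to 0.510 times its level without Mrc1 with each cell weighted equally, inside the fold. Ccl7 came to a ratio of 12.5 by that weighting. Ccl3 (1670.3 against 1059.5), Ccl4 (2974 against 2666) and Il10 (41.5 against 40.1) were inside the fold. Of 15 haem and iron genes 6 were higher with Mrc1 and 0 lower, with Hmox1 at 989 against 431, Slc40a1 at 213 against 59.1 and the biliverdin reductase Blvrb at 603 against 203. With each cell weighted equally, Hmox1 and Blvrb were 1.66- and 1.88-fold higher, inside the fold. The iron-storage ferritin genes Ftl1 and Fth1 were at 0.945 and 0.939 times their level without Mrc1. Of 6 measured Ms4a genes 5 were higher with Mrc1, and of 13 genes for uptake of dying cells 5, led by the lipid and collagen receptor Cd36 at 356 against 46.4. In cells of at least 5000 UMIs 2 of these 13 uptake genes were higher, Cd36 and Stab1, and 5 of the 15 haem and iron genes.

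Genes of lipid-laden phagocytes and of microglia were among those lower with Mrc1. Of 18 measured phagocyte genes 0 were higher and 8 lower (median log2 ratio -0.72), of 17 microglia genes 0 and 10 (-1.04), and of 21 lysosome genes 0 and 5 (-0.39), beside 2.15% of all genes lower. Per cell, Spp1 ran from 0 to 642 UMIs with a median of 0 with Mrc1 and from 0 to 800 UMIs with a median of 0 without, so that most cells of both classes had none and a few had many. Spp1 was at 862 (829 to 897) CPM with Mrc1 and 10165 (9879.7 to 10456) without, 11.8-fold lower (11.2 to 12.4). Gpnmb was at 39.1 against 382, the fatty acid binding protein gene Fabp5 at 391 against 1767 and the tetraspanin gene Cd9 at 595 against 2132. The proteases Ctsl (1380.0 (1338 to 1423) against 5618 (5407 to 5836)) and Ctsd (1653 against 4229.7) were 4.07- and 2.56-fold lower with Mrc1. Among microglia genes, Crybb1, a crystallin gene of developing microglia, was at 91.5 against 348, Siglech, a sialic acid receptor, at 15.7 against 65.4, P2ry12 at 115 against 251 and Trem2 at 758 against 1553. With each cell weighted equally, P2ry12 and Trem2 came to 0.599 and 0.592 times their level without Mrc1, still lower but inside the fold. Fcrls (832 against 813) and Cx3cr1, the fractalkine receptor (468 against 504), were near equal, with ratios of 1.02 (0.919 to 1.14) and 0.927 (0.807 to 1.07). Sall1, under the count minimum, was found in 12 of 59 cells without Mrc1 and in 8 of 283 with it. Csf1, the growth factor for Csf1r, was 2.94-fold lower with Mrc1 (64.0 against 188). Spp1, Ctsd, Ctsl and Cx3cr1 overlap gene models on the same strand, as do some genes given elsewhere, such as Mrc1, Csf1r and Hdac9. The labels do not state how such reads were counted.

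Most genes of the macrophage core were inside the fold between the classes. Per cell, Csf1r ran from 0 to 27 UMIs with a median of 8 with Mrc1 and from 0 to 21 UMIs with a median of 3 without. In cells of at least 5000 UMIs the medians of Csf1r were 8.5 with Mrc1 and 9 without. In sums over all cells of each class Csf1r was at 794 (762 to 827) against 718 (643 to 798) CPM (ratio 1.11, 0.987 to 1.24). Spi1 was at 535 against 529.8, Apoe at 25374 against 28999.9 and Cd14 at 476 against 401. Of the 20 macrophage-list genes 17 were inside the fold, and the median log2 ratio was -0.18. Mertk was higher with Mrc1 (158 against 73.9; 1.93-fold and inside the fold in cells of at least 5000 UMIs), and Ctss (1074 against 2249.9) and the pore-forming gene Mpeg1 (188 against 435) were lower. Ctss and Mpeg1 came to 0.588 and 0.502 times their level without Mrc1 with each cell weighted equally, inside the fold, and Mertk to 3.82 times. Of 17 transcription factor genes 4 were higher with Mrc1, Maf, Runx1, Pparg and Tfec, and none lower. Of 16 immediate early genes 6 were higher, with Fos at 1117 against 492 and Ier3 at 1168 against 393. Fos came to ratios of 1.24 and 1.62, inside the fold, in members thinned to 3000 and 5000 UMIs. For every ratio after thinning, the classes were drawn again on the Mrc1 UMIs left. Some cells thus changed class, and the classes are not those of the main comparison. With 6 of 16 genes higher, beside 11.4% of all genes, this list moved with the classes and its part in the other differences was not tested.

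Genes outside the lists marked the classes as well. Among the 20 with the highest ratio to Mrc1-free cells were Itsn1, an endocytic scaffold protein gene, at 140.2 against 12.7 CPM (ratio 11.1, 5.04 to 30.3) and found in 160 of 283 cells, and Hdac9, a histone deacetylase gene, at 179 against 16.9 and found in 175. Mgp, a matrix protein gene known from stromal cells, was at 73.2 against 10.6, but in 25 of the 283 cells and with 84 of 215 UMIs in 1 of them. Its ratio with each cell weighted equally was 1.31, inside the fold, and the part of stromal RNA in it was not tested. Among the 20 with the lowest ratio were the fatty acid binding protein gene Fabp3 at 30.3 against 272 (8.99-fold lower, 6.81 to 11.9), the vesicle protein gene Syngr1 at 130.3 against 772, the protease inhibitor gene Serpine2 at 91.2 against 384, the tetraspanin gene Cd81 at 222 against 838 and the apolipoprotein gene Apoc1 at 126 against 379.9. These lower genes were detected in 22, 28, 22, 32 and 27 of the 59 cells. Of the 19 highest genes other than Mrc1, which split the classes, 12 had a RefSeq promoter and 7 of these held the PU.1 core, and of the 20 lowest 16 had one and 3 held it.

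The other lists are given beside the 11.4% of all genes that were higher with Mrc1 and the 2.15% that were lower. Of 9 measured Fc receptor genes 2 were higher with Mrc1 and 0 lower, of 13 pattern recognition genes 3 and 0, of 10 complement genes 2 and 1, of 11 growth factor genes 2 and 0, and of 9 CSF1 pathway genes 0 and 3. Clec4n, which encodes the fungal receptor dectin-2, was the pattern recognition gene with the highest ratio, at 228 against 21.1 CPM (ratio 10.8, 5.85 to 22.7), and 3.74 with each cell weighted equally. C5ar1 (327 against 152) and Cfp (80.7 against 16.9) were the higher complement genes, and Gdf15 joined Bmp2 among growth factors at 317 against 141. Gdf15 came to 1.68-fold with each cell weighted equally, and Cfp to 1.54-fold in members thinned to 5000 UMIs, both inside the fold. Of 9 antigen presentation genes 2 were higher and 2 lower. The costimulator Cd86 was higher at 659 against 257, and the class II chain H2-Ab1 was lower at 147 against 317, but H2-Ab1 came to a ratio of 0.747 and so inside the fold once the 1 cell without Mrc1 that held the most was left out. Of 7 interferon-induced genes 2 were higher and 1 lower. Of 16 cell cycle genes 4 were higher and 0 lower, with Mki67 at 98.4 against 48.5 and Ube2c at 149 against 44.3. For both the direction turned when members were thinned to 3000 or 5000 UMIs and classed again on the Mrc1 UMIs left.

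**Figure D3:**
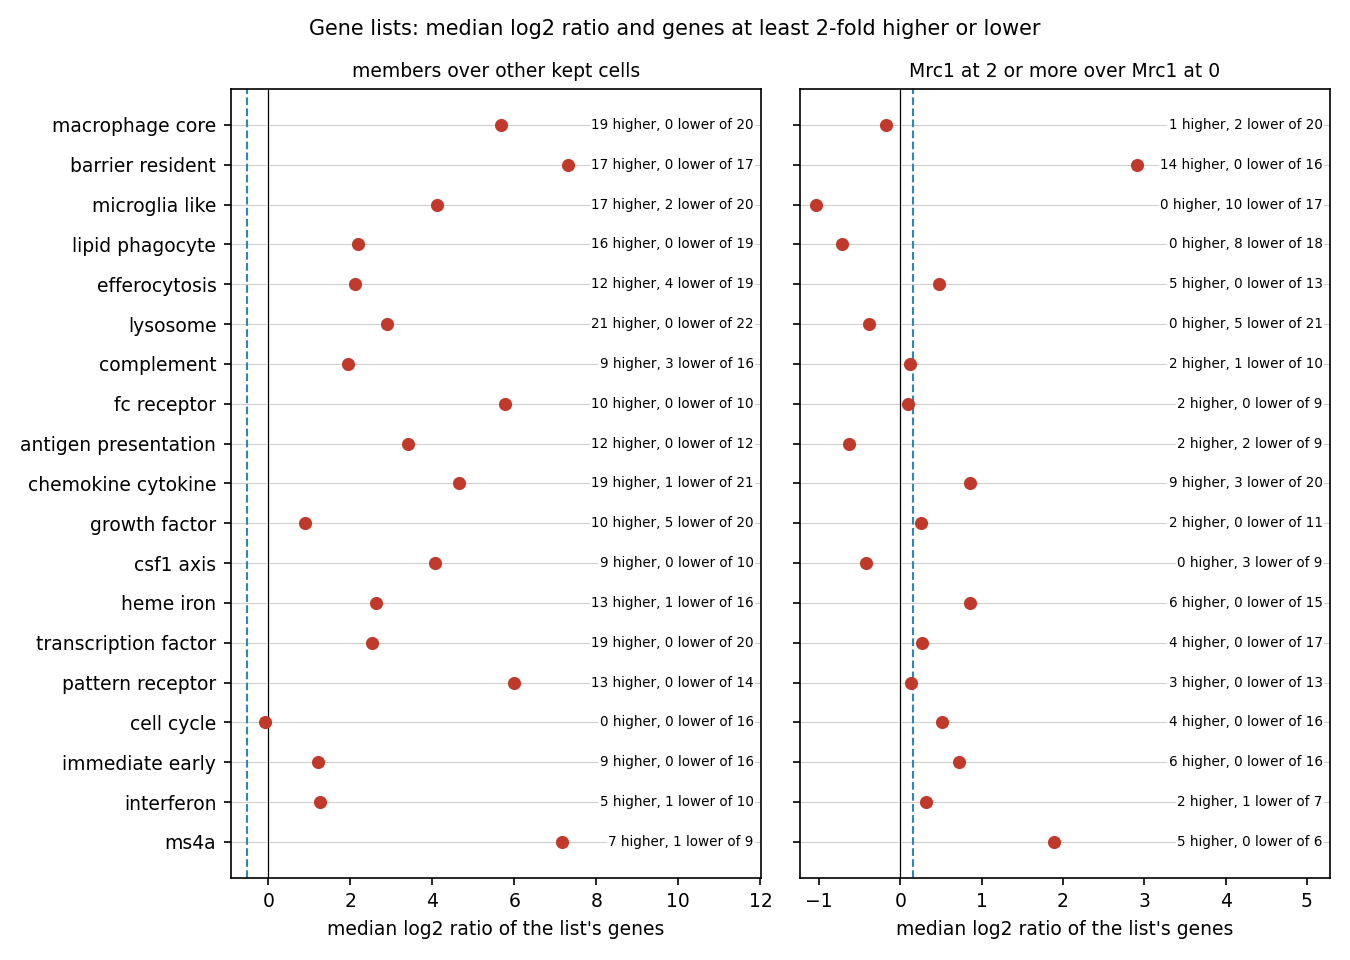
Median log2 ratio of each of 19 gene lists (points; x axis) in members over other kept cells (left) and in members with 2 or more Mrc1 UMIs over those with none (right, Mrc1 left out), with the number of measured genes at least 2-fold higher or lower; the dashed line is the median over all measured genes. On the right the border-macrophage list (barrier resident) lies highest, at 2.91, and the microglia list lowest, at -1.04.

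**Figure D4:**
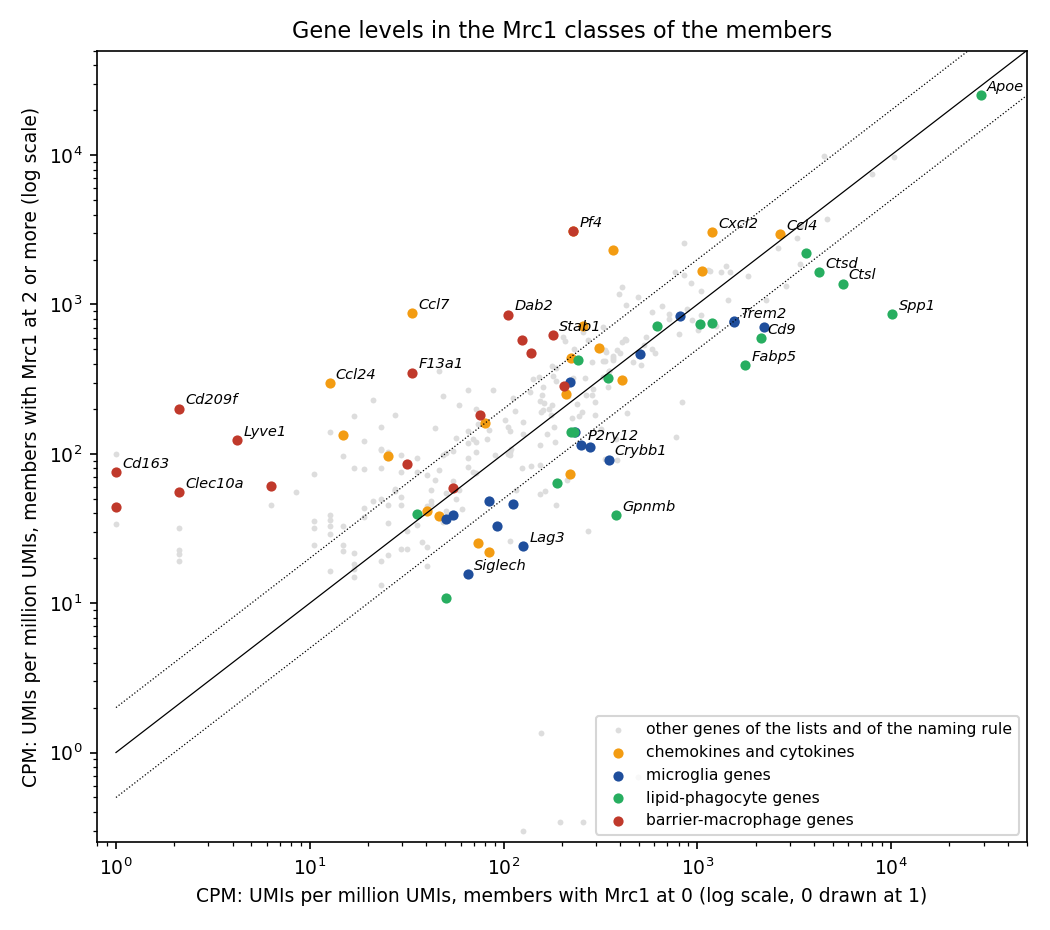
Each point is a gene of the lists or of the naming rule with at least 50 UMIs over both classes, placed by its CPM in members without Mrc1 (x) and with 2 or more Mrc1 UMIs (y), both on log axes with 0 drawn at 1; the solid line marks equal levels and the dotted lines 2-fold. Border genes (barrier-macrophage in the legend) such as Cd163 and Pf4 lie above the lines, Spp1, Gpnmb and Siglech below them, and Apoe and Ccl4 between them.

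Markers of other cell types also differed between the Mrc1 classes. All 6 measured erythroid genes were higher with Mrc1, with Hbb-bs at 9903 against 4494 CPM, but the median per cell of the summed erythroid list was 25.5 UMIs per 10000 with Mrc1 and 41.8 without. Its range was 2.91 to 4505 with Mrc1 and 4.42 to 3447 without. With each cell weighted equally, or with cells thinned to 3000 UMIs and classed again, the direction for Hbb-bs turned. Of 8 measured neuron genes 4 were higher with Mrc1 and 1 lower, with Prph at 266 against 88.6, or 1.16 times without the 1 cell that held the most Prph. The median of the summed neuron list was 3.97 UMIs per 10000 with Mrc1 and 5.70 without it. All 3 measured neutrophil genes were higher with Mrc1, and without the 1 member that held the most S100a8 its ratio turned from 4.04 to 0.476. Of the other lists, 3 of 10 Schwann cell, 1 of 6 fibroblast, 2 of 2 endothelial, 1 of 1 mural, 1 of 2 osteoclast, 1 of 3 B cell, 1 of 4 monocyte and 0 of 4 satellite glia genes were higher and none of these was lower. With 11.4% of all genes higher and at most 10 genes to a list, nothing is read from these counts. Of the dendritic list Siglech alone was measured, and no T or NK cell gene was. All 5 measured mast cell genes were lower, and for Cma1 all 234 UMIs without Mrc1 were in 1 cell. The part of such RNA in the differences between the classes was not tested. Without the 158 members rich in another type's markers (112 with Mrc1, 32 without), 81 gene values of both comparisons moved beyond their counting interval, 1 turned direction and 66 did neither. Of 50 printed genes past the fold between the classes 9 came inside it or turned, and Pf4, Spp1 and Cd209f kept their directions.

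The cells without Mrc1 were not of 1 kind. Among the 32 of at least 5000 UMIs, 12 held 50 or more Spp1 UMIs, 8 held 5 or more Crybb1 UMIs and 3 held 5 or more H2-Aa UMIs, cuts that were set after values had been seen. A single cell met both of the first 2 cuts, and 10 met none. In the 12 Spp1 cells Spp1 was at 26165 CPM, Ctsl at 11118 and Gpnmb at 973. The 8 Crybb1 cells had P2ry12 at 547, against 115 in the Spp1 cells, and Siglech at 176. The 3 H2-Aa cells had Cd74 at 10911 and Ctsl at 302. In the 10 remaining cells Il1b was at 1426 and Fcrls at 315, and none of the 4 sets had a Cd163, Cd209f or Lyve1 UMI. A sum over the class without Mrc1 thus averages over unlike cells, and its Spp1 value came from few: 24 of the 59 had a Spp1 UMI, and 1 held 800 of 4816.

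**Figure D5:**
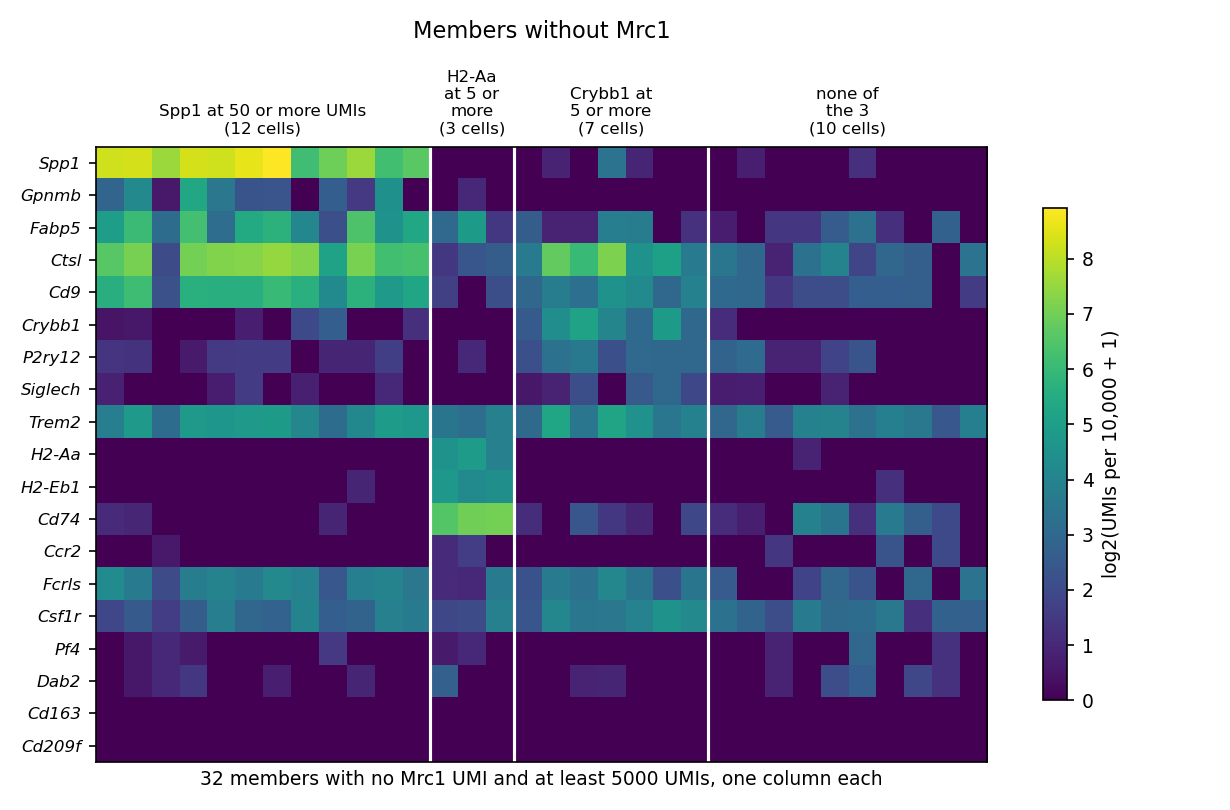
Each column is 1 of the 32 members with no Mrc1 UMI and at least 5000 UMIs and each row a gene; the colour is log2 of the UMIs per 10,000 plus 1, and white lines part the cells by the cuts named above them, with the cell that met 2 cuts among the Spp1 cells. Spp1 is bright in the 12 Spp1 cells, as are Ctsl and Cd9 in all but 1 of them, Ctsl is also bright in some Crybb1 cells, H2-Aa and Cd74 are bright in the 3 H2-Aa cells, and Cd163 and Cd209f are at 0 in all 32.

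These sets were not confined to cells without Mrc1. Over all 280 members of at least 5000 UMIs, 19 met the Spp1 cut (6.79%, 4.14 to 10.4), 24 the Crybb1 cut (8.57%) and 23 the H2-Aa cut (8.21%, 5.28 to 12.1). The Spp1 cut was met by 12 of 32 cells without Mrc1 (37.5%, 21.1 to 56.3) and by 7 of 234 with 2 or more Mrc1 UMIs (2.99%, 1.21 to 6.07). Of the 14 members of that depth with 1 Mrc1 UMI, 4 met the H2-Aa cut and none the Spp1 cut. For H2-Aa the counts were 3 of 32, or 9.38% (1.98 to 25.02), and 16 of 234, or 6.84% (3.96 to 10.9), with overlapping intervals. No cell met both the H2-Aa cut and the Spp1 or Crybb1 cut, and 4 met both of the latter.

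The 19 Spp1-rich members differed from the other 261 in genes beyond the one that chose them. Ctsl at 11551 against 1022 CPM, Ctsd at 7913 against 1421, Cd9 at 4175 against 454, Fabp5 at 3347 against 322 and Gpnmb at 789.7 against 14.0 were higher, and Gpnmb at 5 or more UMIs was found in 12 of them and in 1 other cell. Syngr1 at 1541 against 85.9, a synaptic vesicle protein gene, Lag3 at 229.8 against 19.9 and the complement receptor chain Itgax at 142 against 3.59 were higher as well. At the other end, Pf4 at 19.4 against 2704 and Ccl7 at 16.2 against 826 were lower, and Cd36, F13a1 and Lyve1 had no UMI in the Spp1-rich cells against 337, 319.7 and 112 CPM. Apoe at 27974 against 25766, Csf1r at 696 against 783 and C1qa at 3764 against 3225 were near level. Among genes that define osteoclasts, which also make Spp1, Acp5 was at 16.2 and Ctsk at 3.24 CPM in the 19 cells, against 96.3 and 15.3 in the rest. These are low counts over 19 cells, and no other gene of the 10 on the osteoclast list is given. Whether any of the 19 cells are osteoclasts was not tested.

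Among the 280 members of at least 5000 UMIs, the 23 with 5 or more H2-Aa UMIs carried nearly all of the H2-Aa and H2-Eb1 RNA. They held 796 H2-Aa UMIs against 19 in the other 257, and H2-Aa, which chose them, was at 3079.8 CPM against 6.10, H2-Eb1 at 2999 against 3.86 and Cd74 at 10109.8 against 171. Ccr2 at 236 against 11.9 was higher, and 12 of the 23 held 2 or more Ccr2 UMIs, out of 23 such cells in all. The galectin gene Lgals3 at 843 against 121 and Lyz2 at 2956 against 1719 were higher too. Mrc1 at 356 against 1164, Fcrls at 302 against 846, Ctsl at 383 against 2120.2 and Ccl24 at 3.87 against 268 were lower, and Cd163, Cd209f, Lyve1 and Siglech had no UMI in these cells. Of genes that define dendritic cells, which also hold class II RNA, these cells had 2 Flt3 UMIs, 1 Zbtb46 UMI, 1 Clec9a UMI and none of Xcr1, Ccr7 or Cd209a, low counts over 23 cells.

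The 24 members with 5 or more Crybb1 UMIs were marked by other microglia genes: P2ry12 at 446 against 112 CPM, Gpr34 at 458 against 126, Siglech at 140.3 against 11.8 and Lag3 at 175 against 24.9. The crystallin gene Cryba4 went with it, at 265 against 73.8, and Tmem119 was at 68.6 against 55.7. They kept part of the Mrc1 and Pf4 level, Mrc1 at 524 against 1163 and Pf4 at 997 against 2611, while Cd163 at 3.12 against 67.2 and H2-Aa at 3.12 against 267 were lower. Of the Schwann cell genes, Mbp at 555 against 358 was higher in the Crybb1 cells, and the part of Schwann cell RNA in this set was not tested.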

How the data were processed

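The deposited table of the ganglion library holds whole UMI counts for 32285 genes in 13065 barcodes, made by the authors with Cell Ranger on mm10: version 3.1.0 per the submitters' processing notes, version 7.0.1 per the file headers. Whether intronic reads were counted is not stated there. No table of counts before cell calling was used. From these counts, UMIs were summed over the cells of a group with Python 3.11.15 (numpy 2.4.6, scipy 1.17.1, pandas 2.3.3; figures with matplotlib 3.10.9) and divided by the group's total. Levels have exact Poisson, shares Clopper-Pearson and ratios exact conditional binomial 95% intervals, and the scripts were tested on simulated data. The median depth is given above for members, other kept cells, globin-rich cells and the 2 Mrc1 classes compared. It was 7208 UMIs in the 78 cells rich in monocyte genes and 6125.5 in the 118 of the neutrophil range. The sets cut on Spp1, Crybb1, H2-Aa or Top2a UMIs were not matched in depth to the cells they are set against. UMIs of 1 cell are not independent samples of the tissue. A gene was measured with at least 50 UMIs over both sides and called at 2-fold.

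Members and lists (19 of gene programs, 14 of other cell types) were chosen with earlier results of these data known. Named were the markers of the selection, the 20 genes with the highest and 10 (20 for Mrc1) with the lowest ratio among those with at least 200 UMIs, and of each list up to 4 genes highest in level or change (3 for other types). Other list genes, the marker ranges and the Spp1, Crybb1 and H2-Aa cuts were chosen after values were seen. Positions are from GENCODE M21, which held 32158 of the identifiers, and promoters from RefSeq (GRCm38.p6). Alternatives were other filters, C1q cuts, scalings, count minimums, folds and depths. Hba-a1 and Hba-a2 are near-identical copies and are not read singly. Doublets were not called.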

Additional observations from a re-analysis of the deposited data

How the results depend on the processing

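Over the alternatives, 298 of 850 gene values between members and other cells and 257 of 837 between the Mrc1 classes moved beyond their counting interval. Genes higher and lower with Mrc1 numbered 879 and 166, and 1391 and 297 with each cell weighted equally, 1730 and 79 as UMIs per cell, 1657 and 363 with at least 20 UMIs, 230 and 47 with at least 200, 1888 and 524 at 1.5-fold, 311 and 57 at 3-fold, and 234 and 66 or 424 and 97 in members thinned to 3000 or 5000 UMIs, where fewer genes reach the count minimum. Genes lower with Mrc1 numbered 265 with C1q at 10 or more per 10000, and 80 without the cell that held the most of each gene, an alternative chosen after seeing the data. Genes higher in members numbered 1352 as UMIs per cell and 1378 at 3-fold, against 2122. Members were 3.12% of barcodes with no filter and 2.28% without the 158 members rich in another type's markers. The share with 2 or more Mrc1 UMIs was 70.8% with no filter, 81.1% with the stricter filter, 81.0% without those 158, and 61.6% and 69.3% after thinning to 3000 and 5000 UMIs.

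Of 52 printed genes past the fold between the Mrc1 classes with UMIs in both, 32 kept the call under every alternative run for them and 20 lost it under at least 1: Apoc1, Blvrb, Cfp, Ctsd, Ctss, Fos, Gdf15, H2-Ab1, Hbb-bs, Hmox1, Il1a, Mertk, Mgp, Mki67, Mpeg1, P2ry12, Prph, S100a8, Trem2 and Ube2c. Of these, 12 lost it with each cell weighted equally and 13 and 11 in members thinned to 3000 and 5000 UMIs. The alternatives run for single genes held no other fold and no other count minimum. The genes that kept the call thus did so at the 2-fold limit only, and a stricter fold was not tried for them. With equal weights the ratio of Itsn1 rose to 24.4, and those of Gpnmb, Fabp3, Serpine2 and Siglech came to 0.166, 0.171, 0.363 and 0.409.

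For 14 of 837 gene values under alternatives the direction of a gene past the fold between Mrc1 classes turned, and for none of 850 between members and other cells. In the thinned alternatives the classes were drawn again on the Mrc1 UMIs left, so some cells changed class. Thinned to 3000 and 5000 UMIs, the ratio was 0.685 and 0.747 for Mki67, 0.409 and 0.362 for Ube2c, 0.893 and 0.730 for Hbb-bs and 0.716 and 0.586 for Prph. With each cell weighted equally it was 0.791 for Hbb-bs and 0.753 for Prph. For S100a8 it was 0.250 thinned to 3000 UMIs, 0.664 without the 158, 0.410 with 5 or more Mrc1 UMIs against none and 0.476 without its top cell. The cause of these changes was not tested. No paired analysis was possible because the ganglion is 1 library and the molar libraries, which carry the replicate numbers, were not analysed here. For the same reason no replicate could be left out.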

Other observations

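Among the 280 members of at least 5000 UMIs, the border genes were found in overlapping but not identical cells, by cuts set after values had been seen. Ccl24 reached 2 or more UMIs in 82 cells (29.3%), Cd163 in 44, Lyve1 in 43, Bmp2 in 41 and Cd209f in 31. Lyve1 and Ccl24 met in 33, 76.7% of the Lyve1 cells and 40.2% of the Ccl24 cells. Ccl24 and Cd209f met in 24, 29.3% of the Ccl24 cells and 77.4% of the Cd209f cells. Bmp2 met Lyve1 in 8 cells or 19.5% of the Bmp2 cells, beside 15.4% of all 280 that held Lyve1. Sall1, known from brain microglia, was found in 20 of the 280 cells, of which 11 met the Spp1 cut, 10 held 5 or more P2ry12 UMIs and none met the H2-Aa cut. Tmem119 was found in 17 of the 23 P2ry12 cells (73.9%) and in 14 of the 23 H2-Aa cells (60.9%), against 36.8% of all 280.

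Cell cycle genes were held by a set of members. Of the 280, 36 (12.9%, 9.17 to 17.4) held 2 or more UMIs of Top2a, a topoisomerase of dividing cells, and 31 of these 36 held 2 or more of Mki67. In the 36 cells Ube2c at 513 against 25.5 CPM and Birc5 at 365 against 36.6 were higher, while Mrc1 at 697 against 1217 and C1qa at 2455 against 3507 were lower. Markers of other cell types were higher in them too, with Col1a1 at 1693 against 220.5 and Prph at 712 against 94.1, and their part in the cell cycle values was not tested.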
